A study of Homo sapiens with 12 samples.

Results

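The BCL2 family was described in HK-2 cells, an immortalised human cell line from the epithelium of the kidney proximal tubule, exposed to Ota. The members are every array probe set that the platform annotation pairs with 1 gene symbol, where that symbol is BAX, BAK1, BID, BBC3, PMAIP1, BCL2L11, BCL2, BCL2L1, BCL2L2 or MCL1. This gave 31 of the 54675 probe sets on the array, from 9 of the 10 genes. The probe set that carries BBC3 is annotated with 3 symbols, so no level is given for that gene. The arrays compare a low dose of Ota with vehicle alone after 24 h and after 72 h, with 3 arrays labelled as biological replicates in each of the 4 groups, and the wider study looked for signatures of kidney toxicity among several compounds. All 4 groups shared a medium supplemented with EGF, hydrocortisone, insulin, transferrin and selenite, and cells covered most of the well when exposure began. The labels name the dose only as low and write Ota as it stands here; OTA usually abbreviates the mycotoxin ochratoxin A. They also do not say what the cultures of a group shared, so p-values measure the spread between these 12 arrays.

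Proteins of the BCL2 family decide whether the outer mitochondrial membrane stays closed. BAX and BAK1 are the effectors that form pores in it and let cytochrome c out, which activates caspases. The anti-apoptotic members BCL2, BCL2L1 (BCL-XL), BCL2L2 (BCL-W) and MCL1 hold the effectors and their activators in check. BH3-only members sense stress and bind the others: BCL2L11 (BIM) and BID activate the effectors directly, BID after cleavage by caspase-8, while PMAIP1 (NOXA) mainly neutralises MCL1. In the proximal tubule this pathway is known for tubular cell death after toxic and ischaemic injury. HK-2 cells were immortalised with papillomavirus oncogenes, one of which promotes breakdown of the p53 protein, a known activator of BAX, BBC3 and PMAIP1 transcription.

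In Ota cells the data show 3 departures from control: less BCL2L2 and less MCL1 after 24 h, and more BID with less MCL1 after 72 h. BCL2L2 fell 3.38-fold at 24 h, and its Ota response differed between the times. BID was higher with Ota at 72 h by every one of its 3 probe sets, 1.52-fold to 1.83-fold, where control cells had lower levels at 72 h than at 24 h by 2 of the 3. MCL1 was lower at both times by its brightest probe set, 1.40-fold and 1.42-fold. PMAIP1 rose with time in both control and Ota cells, by 1.72-fold to 2.06-fold, and did not pass the test for Ota at either time. No probe set of BAX, BAK1, BCL2L11, BCL2 or BCL2L1 passed the test for Ota at 24 h or at 72 h. That test left out the replicate numbers of the labels. With the replicate number as a block in the fit, BCL2 passed by 203685_at at 24 h (limma, adjusted p = 0.00679). At 24 h same-numbered control and Ota arrays correlated. The block also passed BCL2 and BAX at 72 h, where the numbers were not taken to pair arrays.

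All levels are log2 values that the authors made with GCRMA, on which 1 unit is a doubling, and values near 2 to 3 lie at the floor of the method. A probe set was tested where it was above 4 on at least 3 arrays, which 22477 probe sets were. Of the 31 members 23 were tested, and each of these was above 4 on all 12 arrays, so none entered through 1 group alone. The 8 members left out were below 4 on all 12 arrays: 3 of BCL2L11, 2 of BCL2, and 1 each of BCL2L1, BCL2L2 and MCL1. The test was limma over all tested probe sets with Benjamini-Hochberg adjustment, and an adjusted p below 0.05 is called a change. Values of different probe sets are not set against each other, since probes differ in brightness.

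Across the array, arrays of 1 group correlated at r = 0.982 to 0.993 over the tested probe sets, and no array stood apart. The signal of the 3' actin control minus that of the 5' one (log2), a sign of RNA quality, ranged from 0.89 to 1.24 in control and 1.06 to 1.30 in Ota cells at 24 h, and from 1.00 to 1.33 and 1.19 to 1.33 at 72 h. Its part in the results below was not tested. Of the epithelial and tubular markers with a probe set 6 of 13 were above the filter (KRT8, KRT18, CDH1, CDH2, VIM and PAX8), while the proximal tubule genes LRP2, CUBN, AQP1, SLC34A1 and SLC22A6 lay at the floor. VIM, which this list holds, is a filament gene better known as a mesenchymal marker. Markers of endothelial cells (0 of 6), leukocytes (0 of 5) and distal nephron (0 of 6) were at the floor too, whereas 3 of 7 fibroblast markers (DCN, LUM and COL1A1) and 2 of 4 podocyte markers were above the filter. The summed level of the 7 fibroblast markers (log2 of the sum) was 11.74 to 12.32 on the control and 11.77 to 12.29 on the Ota arrays at 24 h, 10.12 to 10.67 on the control arrays at 72 h and 11.19 to 11.74 on the Ota arrays at 72 h, so the control arrays at 72 h were the lowest. That of the 13 epithelial and tubular markers was 14.38 to 14.73 and 14.14 to 14.38 at 24 h, and 14.42 to 14.45 and 13.90 to 14.13 at 72 h, lowest on the Ota arrays at 72 h. VIM was the brightest of these, with a mean of 13.40 against 12.33 for KRT18, so it weighs most in this sum. With Ota at 72 h LUM rose by 1.68 ± 0.24 and DCN by 1.09 ± 0.29, while CDH1 fell by 1.11 ± 0.23, KRT18 by 0.87 ± 0.11 and VIM by 0.35 ± 0.12 (limma, adjusted p of at most 0.0469). The DCN call was lost without control 72 h replicate 3 or Ota 72 h replicate 1 or 2, and that of VIM without any 1 of the 72 h arrays except Ota 72 h replicate 2, or without control 24 h replicate 1 or Ota 24 h replicate 1. At 24 h 1 marker passed, KRT18 at -0.39 ± 0.11, a call lost without control replicate 1 or 2 or Ota replicate 3, or with array medians made equal (limma, adjusted p = 0.0515). The part of these markers in the results below was not tested.

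At 24 h, 4 of the 23 tested members changed, 1 higher and 3 lower, which is 17.4% against 31% of all tested probe sets (12.9% higher and 18.1% lower). With the replicate number as a block, which same-numbered control and Ota arrays at 24 h bear out, 7 of the 23 changed at 24 h, beside 7767 of all 22477 tested probe sets. In the main fit 4 again changed at 72 h, 3 higher and 1 lower, against 28.2% of all (16.4% higher and 11.8% lower, a split that turned to 3110 higher and 3407 lower probe sets with arrays shifted to a common median). The median log2 fold change of the members was -0.07 at 24 h, with -0.02 over all tested probe sets, and 0.05 at 72 h, with 0.02 over all. Arrays with and without Ota were fully separated in 5 of 23 members at 24 h (42.3% of all probe sets) and in 10 of 23 at 72 h (49.2% of all). By role, 0 of 3 effector probe sets changed at either time. Of 9 BH3-only probe sets 1 was higher at 24 h and 3 at 72 h, and of 11 anti-apoptotic probe sets 3 were lower at 24 h and 1 at 72 h.

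**Figure D1:**
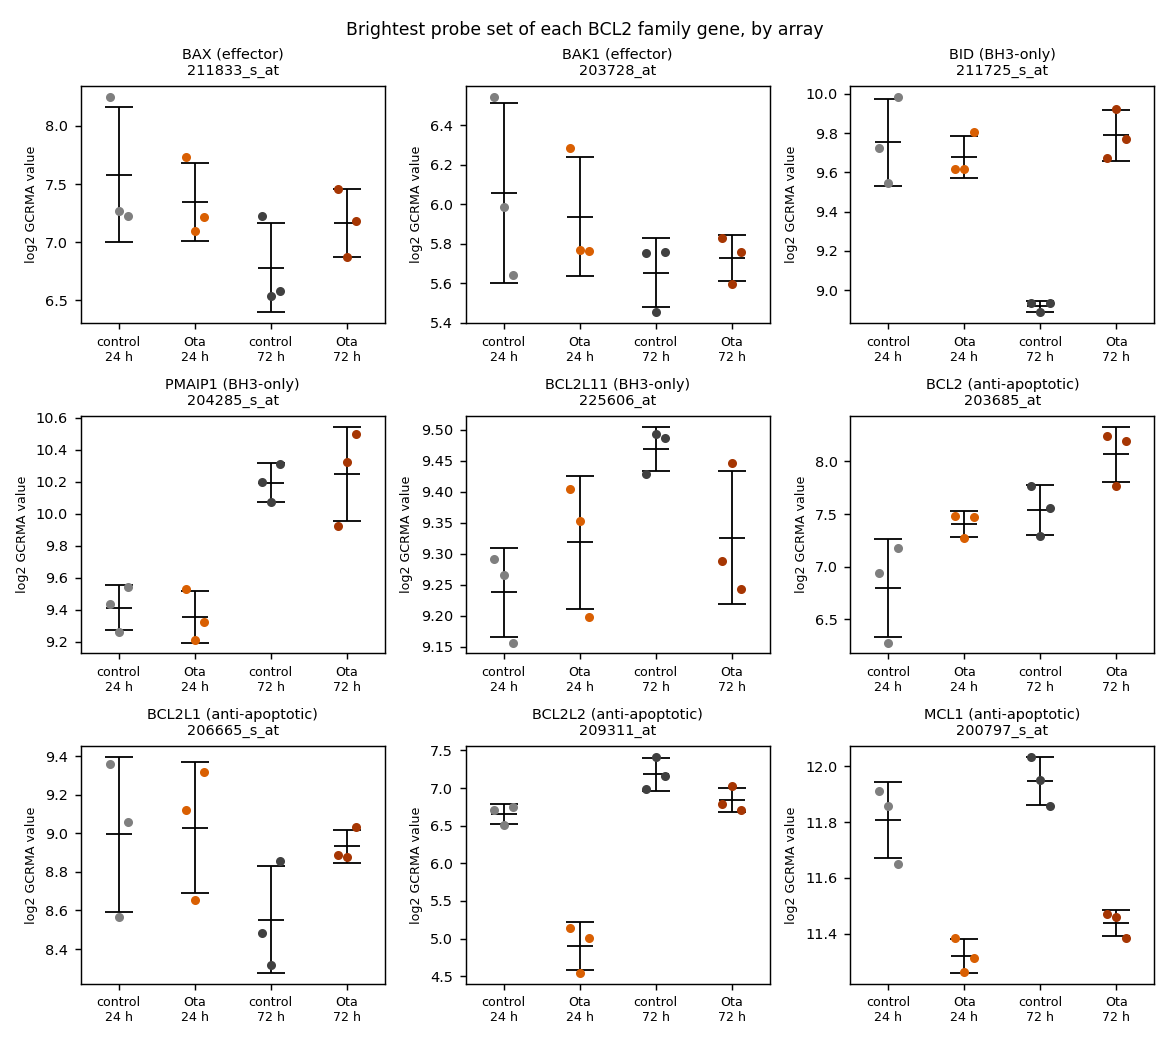
Log2 GCRMA values (y axis) of the brightest probe set of each of the 9 BCL2 family genes in control and Ota cells at 24 h and 72 h (x axis), with 1 point per array and the mean ± SD of the 3 arrays in black; each panel has its own scale. BCL2L2 in Ota cells at 24 h lies between 4.54 and 5.15, below all other arrays, BID in control cells at 72 h lies between 8.89 and 8.93, and both MCL1 Ota groups lie below both control groups.

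BCL2L2, an anti-apoptotic member that guards cells against BAX and BAK1, gave the largest response of the family. Its tested probe set, 209311_at, read 6.70, 6.51 and 6.75 in the control arrays at 24 h and 5.15, 4.54 and 5.01 in the Ota arrays. At 72 h it read 6.98, 7.41 and 7.15 in control and 6.79, 7.02 and 6.71 in Ota cells. The 3 Ota arrays at 24 h lay far below every other array, while the groups at 72 h overlapped. With Ota at 24 h BCL2L2 fell by 1.76 ± 0.17 log2 units (± SE of the fit, 3 arrays a group) (limma, adjusted p = 2.04e-05). At 72 h the difference was -0.34 ± 0.17 and did not pass (limma, adjusted p = 0.157). The responses at the 2 times differed by 1.41 ± 0.24 (limma, adjusted p = 0.00358), a test that 17% of all probe sets passed (11.2% with a higher and 5.77% with a lower response at 72 h) and 2 of the 23 members, both higher. From 24 h to 72 h BCL2L2 rose 3.84-fold in Ota cells (limma, adjusted p = 6.56e-05) and 1.44-fold in control cells (limma, adjusted p = 0.0272). The fall at 24 h kept its call without each array in turn and in every other setting tried. The other single-symbol BCL2L2 probe set, 1555140_a_at, was below the filter on all 12 arrays (2.32 to 3.22). With the mean of both probe sets the difference of the responses was 0.51 (limma, adjusted p = 0.0606) and the 72 h value was -0.36, which passed (limma, adjusted p = 0.0449).

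The genes whose pattern over the 12 arrays was most like that of BCL2L2 were TIMM23B, SPAG16, DHRS13 and SETD6, by the root mean square difference of log2 values after each probe set's own mean was subtracted. That difference was 0.185 for TIMM23B, 0.187 for SPAG16, 0.215 for DHRS13 and 0.228 for SETD6, with a median of 0.905 over the 10698 other genes tested. TIMM23B, which encodes a mitochondrial import protein, had group means of 7.94 in control cells at 24 h and 6.29 with Ota, and 8.72 and 8.05 at 72 h. SETD6, which encodes a lysine methyltransferase, had means of 7.71, 5.74, 8.12 and 7.50 in the same order. Like BCL2L2, all 4 genes had their lowest group mean in Ota cells at 24 h and their highest in control cells at 72 h. They were picked for their likeness over these same 12 arrays, so this shared order follows from the choice and is not a separate result.

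MCL1, a short-lived anti-apoptotic protein that binds BAK1, BCL2L11 and PMAIP1, was read by 5 tested probe sets. The brightest, 200797_s_at, gave 11.91, 11.86 and 11.65 in control cells at 24 h and 11.38, 11.26 and 11.31 with Ota. At 72 h it gave 12.03, 11.95 and 11.86 in control and 11.47, 11.46 and 11.38 in Ota cells. All 6 Ota arrays lay below all 6 control arrays. The fall with Ota was 0.49 ± 0.09 on the log2 scale at 24 h and 0.51 ± 0.09 at 72 h (limma, adjusted p = 0.00237 and 0.00229), and the responses at the 2 times differed by -0.02 ± 0.13 (limma, adjusted p = 0.93). The next probe set, 200798_x_at, of a kind whose probes can match other transcripts, gave 11.27, 10.86 and 11.17 in control cells at 24 h and 10.60, 10.09 and 10.55 with Ota, without overlap. It fell by 0.69 ± 0.14 at 24 h (limma, adjusted p = 0.00403) and was at -0.37 ± 0.14 at 72 h (limma, adjusted p = 0.0814), where its arrays did not overlap either. It passed at 72 h with either other scaling (limma, adjusted p = 0.0461 and 0.0266) and in a fit of the 2 groups alone (limma, adjusted p = 0.0171).

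The 3 dimmer MCL1 probe sets were also below control on average, and none passed. At 24 h they were at -0.56 ± 0.20 (200796_s_at), -0.69 ± 0.25 (214056_at) and -0.21 ± 0.21 (214057_at), and at 72 h at -0.47 ± 0.20, -0.04 ± 0.25 and -0.51 ± 0.21. At 24 h, 200796_s_at and 214056_at were close to the threshold (limma, adjusted p = 0.0516 and 0.0554). Both passed over all 12 arrays with a filter at 6 (limma, adjusted p = 0.0437 and 0.0467), with a trend and robust prior (limma, adjusted p = 0.0437 and 0.047) and with the replicate block (limma, adjusted p = 0.0463 and 0.0323). They also passed without Ota 24 h replicate 3 (limma, adjusted p = 0.0106 and 0.0027), and 200796_s_at also without control 24 h replicate 2 (adjusted p = 0.0478, limma). At 72 h, 200798_x_at and 200796_s_at passed without Ota 24 h replicate 2, which enters only through the shared spread (limma, adjusted p = 0.0322 and 0.0338), and 214057_at without control 72 h replicate 1 (limma, adjusted p = 0.0485). Over all 12 arrays 214057_at also passed at 72 h with quantile normalization repeated, at -0.60 (limma, adjusted p = 0.0484). Of 19 other settings 200796_s_at passed at 72 h in 3 and 214057_at in 2. With time MCL1 did not pass in control or in Ota cells by any of its 5 probe sets over all 12 arrays. Without Ota 24 h replicate 3, 200796_s_at and 214056_at passed in Ota cells over time at 0.75 and 0.85 (limma, adjusted p = 0.0146 and 0.00948), as did the difference of the Ota responses of 214056_at, at 0.97 (limma, adjusted p = 0.0275). Without Ota 24 h replicate 2, 200796_s_at passed in control cells over time at 0.45 (limma, adjusted p = 0.0294). The sixth probe set, 227175_at, was at the floor at 2.02 to 2.15.

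BID, the BH3-only protein that links death receptors to mitochondria, was read by 3 probe sets, all tested. The brightest, 211725_s_at, gave 9.72, 9.55 and 9.99 in control cells at 24 h and 9.62, 9.62 and 9.80 with Ota. At 72 h it gave 8.93, 8.89 and 8.93 in control and 9.67, 9.92 and 9.77 in Ota cells. The control arrays at 72 h stood alone and low, and the other 9 arrays overlapped. BID was higher with Ota at 72 h by 0.87 ± 0.12 on the log2 scale by this probe set (limma, adjusted p = 0.000396). Its other probe sets rose with it at 72 h, 227143_s_at by 0.60 ± 0.10 and 204493_at by 0.80 ± 0.16 (limma, adjusted p = 0.00138 and 0.00413), each without overlap between the arrays. The 3 calls at 72 h were kept without each array in turn and in every other setting tried. The fibroblast markers LUM (means of 9.31, 9.60, 7.51 and 9.19 in control and Ota cells at 24 h and then at 72 h) and DCN (11.65, 11.71, 9.91 and 11.00) were also lowest in control cells at 72 h, and their part in the BID result was not tested.

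At 24 h the BID probe sets differed from each other. Probe set 227143_s_at rose by 0.39 ± 0.10 (limma, adjusted p = 0.0136), from 8.92, 8.92 and 9.21 in control to 9.42, 9.30 and 9.50 in Ota cells, while 211725_s_at was at -0.07 ± 0.12 and 204493_at at 0.29 ± 0.16, neither of which passed. The 24 h call of 227143_s_at was lost without control 24 h replicate 1 (limma, adjusted p = 0.0541) and in a fit of the 2 groups alone (limma, adjusted p = 0.0693). The responses at the 2 times differed by 0.94 ± 0.17 for 211725_s_at (limma, adjusted p = 0.00494), and by 0.22 ± 0.14 and 0.51 ± 0.23 for 227143_s_at and 204493_at, which did not pass. In control cells BID fell from 24 h to 72 h by 0.84 ± 0.12 by 211725_s_at and 0.51 ± 0.16 by 204493_at (limma, adjusted p = 0.000283 and 0.0275), and was at -0.21 ± 0.10 by 227143_s_at. In Ota cells over the same time the 3 probe sets lay between -0.0043 and 0.11 and did not pass.

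**Figure D2:**
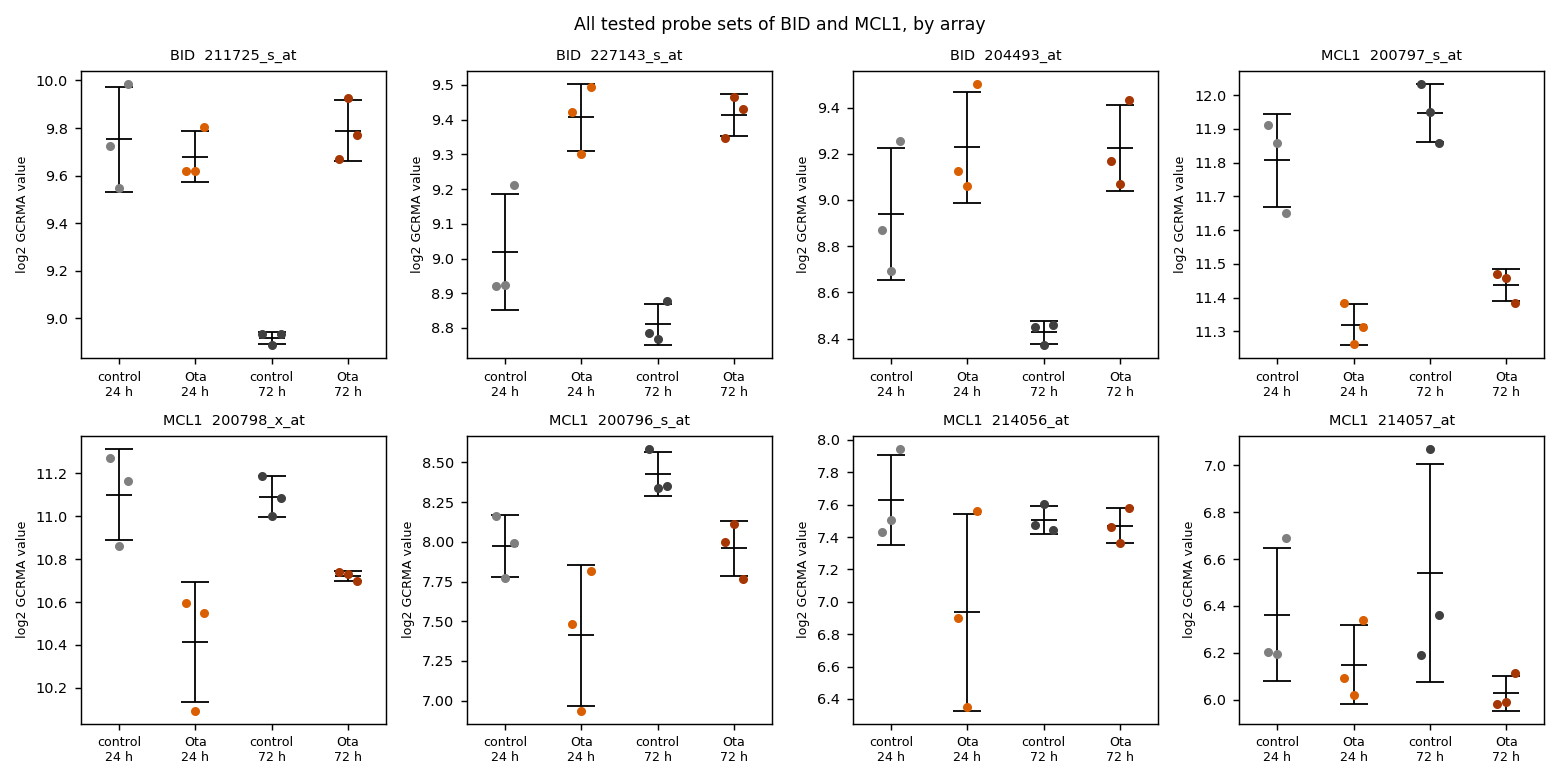
Log2 GCRMA values (y axis) of the 3 tested BID and 5 tested MCL1 probe sets in the 4 groups (x axis), with 1 point per array and the mean ± SD of 3 arrays in black, each panel on its own scale. The 3 control arrays at 72 h are the lowest group in every BID panel, and in the 2 brightest MCL1 panels the Ota arrays lie below the control arrays of the same time.

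PMAIP1, which binds MCL1 and marks it for breakdown, rose with time and did not pass the test for Ota. Its probe set 204285_s_at gave 9.43, 9.26 and 9.54 in control cells at 24 h and 9.53, 9.21 and 9.32 with Ota, and 10.20, 10.07 and 10.31 in control and 9.92, 10.33 and 10.50 in Ota cells at 72 h. All 6 arrays at 72 h lay above all 6 at 24 h, and control and Ota arrays overlapped at both times. The other probe set, 204286_s_at, had means of 8.59 and 8.65 in control and Ota cells at 24 h and of 9.62 and 9.67 at 72 h. In control cells PMAIP1 rose with time by 0.78 ± 0.15 and 1.04 ± 0.20 on the log2 scale (limma, adjusted p = 0.00193 and 0.00208), and in Ota cells by 0.89 ± 0.15 and 1.03 ± 0.20 (limma, adjusted p = 0.00196 and 0.0044). For Ota against control the 4 values lay between -0.06 and 0.06 with adjusted p of at least 0.819 in limma, and the responses at the 2 times differed by 0.11 ± 0.21 and -0.01 ± 0.29, which did not pass.

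Shown are the stretches before the PMAIP1 and BAX starts, genes that moved in opposite directions over time in control cells. Both have an entry in the RefSeq promoter table (GRCh38.p14), which held 8 of the 10 family genes. By some of their probe sets BID and BCL2L1 also fell there, and BCL2 and BCL2L11 also rose. These have entries too and are not shown, so the choice of BAX and PMAIP1 was not the only one possible. Each stretch shown is 250 bases, 5′ to 3′ on the gene's strand. PMAIP1 lies on the plus strand at chr18:59899746-59899995, with the half-site of the cAMP response element, TGACG on either strand, in capitals. BAX lies on the plus strand at chr19:48954625-48954874, with the E-box CACGTG in capitals.
PMAIP1: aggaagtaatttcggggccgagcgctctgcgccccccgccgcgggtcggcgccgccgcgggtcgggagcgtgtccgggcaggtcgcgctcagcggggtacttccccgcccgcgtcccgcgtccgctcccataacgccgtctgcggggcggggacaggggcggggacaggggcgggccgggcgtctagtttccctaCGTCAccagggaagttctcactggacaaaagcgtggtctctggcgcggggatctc
BAX: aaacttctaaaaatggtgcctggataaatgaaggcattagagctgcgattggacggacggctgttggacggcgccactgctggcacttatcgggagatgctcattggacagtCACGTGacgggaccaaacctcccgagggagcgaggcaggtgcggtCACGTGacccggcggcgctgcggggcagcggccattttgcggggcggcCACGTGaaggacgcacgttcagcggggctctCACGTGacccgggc

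The PMAIP1 stretch held 1 half-site, 55 to 51 bases before the start, a motif that 21.6% of 27305 promoters of this length held. The half-site was not particular to PMAIP1, since BAX, BCL2 and BCL2L1 each held 1 as well. The PMAIP1 stretch also held 4 GC boxes (GGGCGG on either strand), which 42.2% of promoters held at least once. GC boxes were also in BAX, BAK1 and BCL2L11. The BAX stretch held 4 E-boxes, and 6.46% of promoters held at least 1, among them BBC3. The single TGACG of BAX overlapped one of its E-boxes. The other motifs searched on both strands were TTGCATCA, GTAAACA and TTTGGCGC, held by 0.828%, 3.01% and 0.542% of promoters, and none was in either stretch. The BID stretch held none of the motifs searched, and that of BCL2L11 held 1 GTAAACA. BID has 5 entries in the promoter table and BCL2L1 has 2, and for each gene only the entry with the most upstream start was searched. These matches describe the letters only and do not show that a factor was bound.

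BAX, the effector that moves from the cytosol into the mitochondrial membrane, was read by 2 probe sets. The brighter, 211833_s_at, gave 8.25, 7.27 and 7.22 in control cells at 24 h and 7.73, 7.09 and 7.22 with Ota, and 7.23, 6.54 and 6.58 in control and 7.46, 6.87 and 7.18 in Ota cells at 72 h. Replicate 1 was the highest array of each group for this probe set. The second, 208478_s_at, gave 6.76, 6.58 and 6.19 in control and 7.05, 6.88 and 7.11 in Ota cells at 72 h, without overlap. Its difference was 0.50 ± 0.21 at 72 h (limma, adjusted p = 0.0924), and it passed without Ota 24 h replicate 2, an array that enters only through the shared spread (limma, adjusted p = 0.0355). At 24 h the 2 probe sets were at -0.23 ± 0.30 and -0.18 ± 0.21, which did not pass. BAX was lower in control cells at 72 h than at 24 h by 0.70 ± 0.21 by 208478_s_at (limma, adjusted p = 0.019), and this call was lost without control 24 h replicate 1 or control 72 h replicate 3 (limma, adjusted p = 0.0731 and 0.0782). The brighter probe set was at -0.80 ± 0.30 over that time (limma, adjusted p = 0.0533). It passed in 10 of 21 other settings, among them the replicate block (limma, adjusted p = 0.00113), both other scalings (limma, adjusted p = 0.0435 and 0.0434), a filter at 6 (limma, adjusted p = 0.0423) and the mean of both probe sets (limma, adjusted p = 0.0183). Of left-out arrays, it passed without any single one of control 24 h replicate 2 (adjusted p = 0.0464, limma), control 24 h replicate 3 (adjusted p = 0.0377, limma) or control 72 h replicate 1 (adjusted p = 0.0299, limma).

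BAK1, the effector that sits in the membrane already, was read by 1 probe set, 203728_at. Its values ran from 5.64 to 6.54 in control and 5.76 to 6.28 in Ota cells at 24 h, and from 5.45 to 5.76 and 5.60 to 5.83 at 72 h, so the groups overlapped. The Ota differences were -0.12 ± 0.22 and 0.07 ± 0.22 (limma, adjusted p = 0.73 and 0.838). From 24 h to 72 h BAK1 was at -0.40 ± 0.22 in control cells, which passed without control 24 h replicate 3 at -0.61 (limma, adjusted p = 0.0386), and at -0.21 ± 0.22 in Ota cells.

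BCL2L11, the BH3-only protein that can bind every anti-apoptotic member, had 4 tested probe sets, and none passed for Ota. The brightest, 225606_at, ranged from 9.16 to 9.49 over all 12 arrays. At 24 h the 4 probe sets lay between -0.01 and 0.08, and at 72 h between -0.78 and -0.08 (limma, adjusted p of at least 0.12). At 72 h, 1553096_s_at passed without Ota 72 h replicate 2 at -0.41 (limma, adjusted p = 0.0306). The probe sets moved apart over time. In control cells 1553096_s_at rose by 0.39 ± 0.13 (limma, adjusted p = 0.0362), a call lost without each of control 24 h replicates 1, 2 and 3 and control 72 h replicates 1 and 2 in turn (limma, adjusted p up to 0.118). In Ota cells 1555372_at fell by 1.22 ± 0.35 (limma, adjusted p = 0.0239), from 6.03, 6.82 and 5.52 to 4.86, 4.36 and 5.48, a call lost without Ota 24 h replicate 2, Ota 72 h replicate 1 or Ota 72 h replicate 2 (limma, adjusted p up to 0.094).

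BCL2, the founding anti-apoptotic member, was above the filter by 2 of its 4 probe sets. Probe set 203685_at gave 6.94, 6.27 and 7.18 in control cells at 24 h and 7.48, 7.27 and 7.47 with Ota, and 7.77, 7.29 and 7.56 in control and 8.24, 7.77 and 8.20 in Ota cells at 72 h. The Ota arrays lay above the control arrays at each time, and the means rose from 6.80 to 7.54 in control and from 7.40 to 8.07 in Ota cells. At 72 h the separation was very narrow, with the highest control array at 7.766 and the lowest Ota array at 7.768. For Ota the differences were 0.61 ± 0.22 and 0.53 ± 0.22 (limma, adjusted p = 0.0577 and 0.0984), and neither passed. The first passed with the replicate block (limma, adjusted p = 0.00679), without control 24 h replicate 3 at 0.80 (limma, adjusted p = 0.021) and with either other scaling of the arrays (limma, adjusted p = 0.0334 and 0.0315), and the second without control 24 h replicate 2 (limma, adjusted p = 0.0308). The 24 h difference also passed with a filter at 6, and so in 5 of 21 other settings. Over time BCL2 rose by 0.74 ± 0.22 in control cells (limma, adjusted p = 0.0198) and by 0.66 ± 0.22 in Ota cells (limma, adjusted p = 0.0446). The control call was lost without control 24 h replicate 2 or control 72 h replicate 1 or 3 (limma, adjusted p up to 0.0746), and the Ota call was lost in 12 of 21 settings, 8 of which left out 1 array (Ota 24 h replicate 1, 2 or 3, Ota 72 h replicate 1 or 3, control 24 h replicate 1, or control 72 h replicate 1 or 3). The other tested BCL2 probe set, 207004_at, ran from 4.58 to 5.42 and did not pass in any comparison.

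BCL2L1, whose main product BCL-XL holds BAX and BAK1, had 3 tested probe sets, none of which passed for Ota. They lay between -0.16 and 0.03 at 24 h and between 0.15 and 0.38 at 72 h (limma, adjusted p of at least 0.232). By the brightest, 206665_s_at, the 72 h arrays gave 8.48, 8.32 and 8.86 in control and 8.89, 8.88 and 9.03 in Ota cells, a narrow separation. In control cells over time 212312_at fell by 0.46 ± 0.15 (limma, adjusted p = 0.031), a call lost without each of control 24 h replicates 1 and 3 and control 72 h replicates 1 and 2 in turn (limma, adjusted p up to 0.118). The brightest probe set was at -0.44 ± 0.22 there and passed without control 24 h replicate 2 at -0.66, and with the replicate block over all arrays (limma, adjusted p = 0.0328 and 0.0432).

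**Figure D3:**
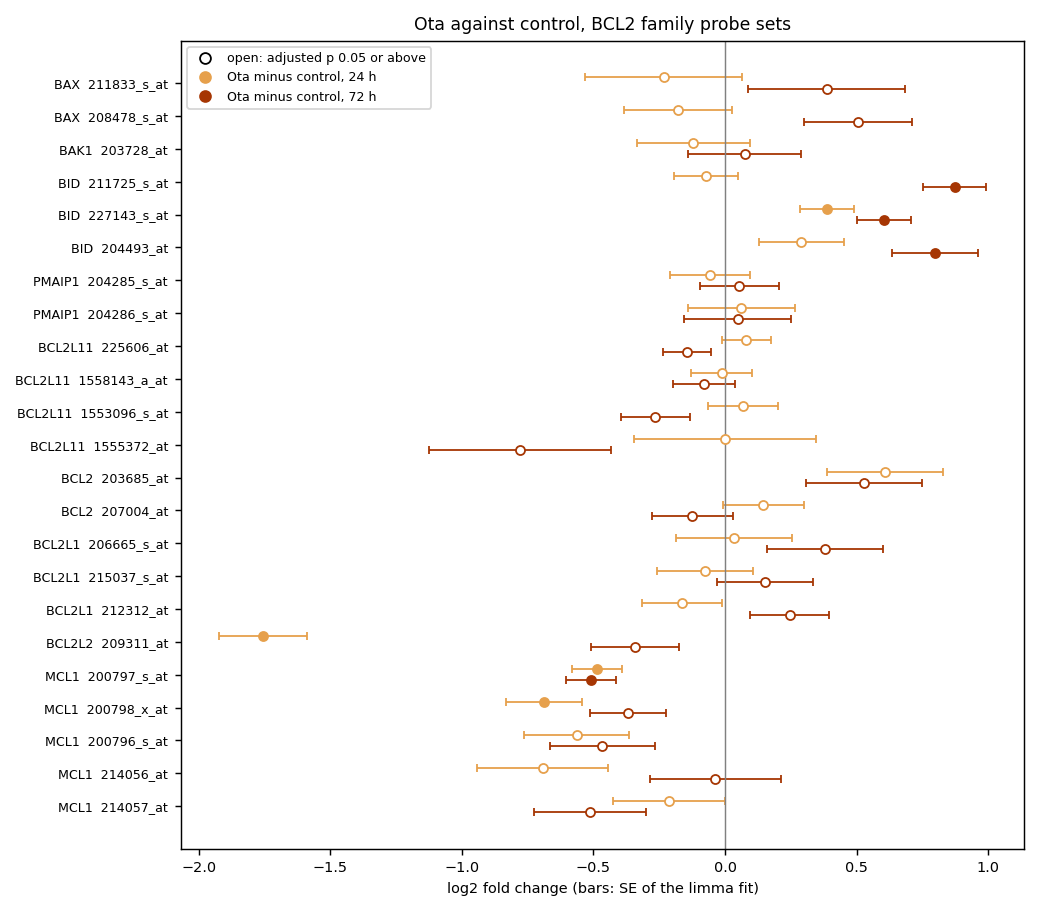
Log2 fold change of Ota against control (x axis) for the 23 tested probe sets (y axis), at 24 h in light orange and 72 h in dark brown, with bars for the SE of the limma fit; filled points passed at an adjusted p below 0.05. BCL2L2 at 24 h is the farthest point at -1.76, the 3 BID points at 72 h are filled at 0.60 to 0.87, and the MCL1 points lie below 0 at both times.

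Changes with time set the scale for these responses. In control cells 9 of 23 members changed from 24 h to 72 h, 5 higher and 4 lower (39.9% of all probe sets changed, 20.2% higher and 19.7% lower), and their arrays did not overlap in 12 (50.9% of all). In Ota cells 5 changed, 4 higher and 1 lower (27.6% of all, 17.7% higher and 9.94% lower, a split that turned to 2872 higher and 3676 lower with arrays shifted to a common median), and 8 did not overlap (47.9% of all). The control arrays enter both the Ota and the time comparisons, and so do the Ota arrays, so these counts are not separate evidence. In control cells the calls of 211725_s_at for BID and of both PMAIP1 probe sets were kept without each array in turn. The rise of BCL2L2 in control cells (0.53 ± 0.17) was lost without control 24 h replicates 1 or 2 or control 72 h replicates 2 or 3 (limma, adjusted p up to 0.103), and the fall of BID by 204493_at was lost without control 24 h replicate 3 or any of the 3 control arrays at 72 h (limma, adjusted p up to 0.093).

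**Figure D4:**
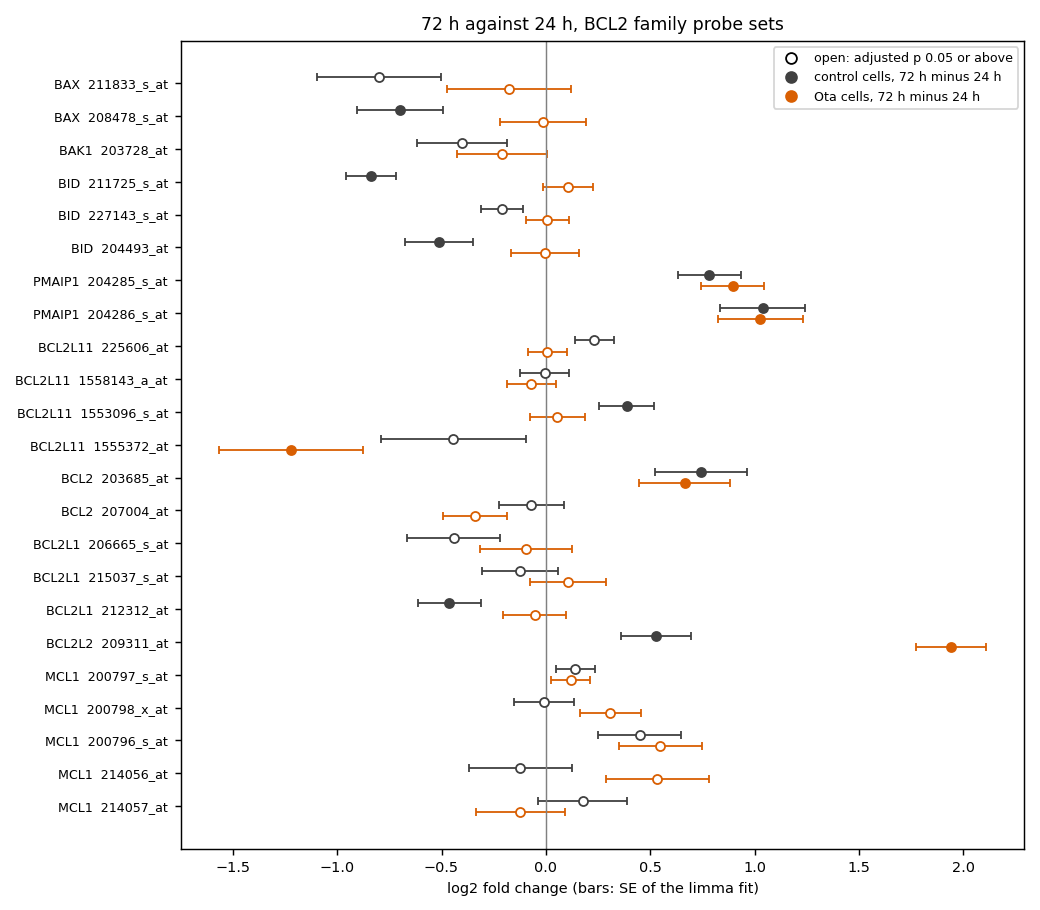
Log2 fold change of 72 h against 24 h (x axis) for the 23 tested probe sets (y axis), in control cells in dark grey and Ota cells in orange, with bars for the SE of the limma fit; filled points passed at an adjusted p below 0.05. Both PMAIP1 probe sets rise alike in both (0.78 to 1.04), BID 211725_s_at falls only on the control side (-0.84 against 0.11), and BCL2L2 rises by 1.94 in Ota and 0.53 in control cells.

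The counts of this list and of those that follow are to be read beside all genes. With 1 probe set per gene, 1010 of 10699 genes rose and 2307 fell with Ota at 24 h, and 1827 rose and 1594 fell at 72 h. Of 13 further family genes 8 were above the filter, and BCL2A1, BCL2L10, BCL2L14, BMF and HRK were not. With Ota at 24 h 2 of 8 fell and 0 rose. BOK, a relative of BAX and BAK1, fell by 0.95 ± 0.19 and BCL2L12 by 0.37 ± 0.10 (limma, adjusted p = 0.00271 and 0.0132), the latter not without control 24 h replicate 1 or Ota 24 h replicate 2. At 72 h BCL2L15 rose by 0.88 ± 0.17, from a mean of 4.23 close to the filter (limma, adjusted p = 0.00334), and 0 fell (1 with either other scaling).

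Among partners and turnover factors of the family 3 of 14 rose at each time, and 0 fell (1 at 72 h with either other scaling). MARCHF5, a mitochondrial ubiquitin ligase that acts on MCL1 complexes, rose by 0.81 ± 0.11 at 24 h and 0.53 ± 0.11 at 72 h (limma, adjusted p = 0.000232 and 0.00465). By 218582_at, however, MARCHF5 fell by 0.50 at 24 h (limma, adjusted p = 0.0135), so its direction depends on the probe set. BTRC, a ubiquitin ligase subunit, rose by 0.71 ± 0.16 at 24 h, with its other probe sets at -0.13 and -0.44, which did not pass. MTCH2, the mitochondrial receptor for cleaved BID, rose by 0.36 ± 0.08 at 72 h beside BID itself (limma, adjusted p = 0.00494), and by 0.67 by its other probe set. At 24 h that other probe set rose by 0.80 (limma, adjusted p = 0.00202), while the brightest was at -0.09 and did not pass. TMBIM6, an inhibitor of BAX, rose by 0.22 ± 0.08 at 24 h and 0.29 ± 0.08 at 72 h (limma, adjusted p = 0.0449 and 0.0149). The 24 h call was lost without any 1 array except control 24 h replicate 2, and the 72 h call without control 72 h replicate 3. By its other probe set, 200803_s_at, TMBIM6 was at -0.16 at 24 h and 0.19 at 72 h, neither of which passed, with an average of both at 0.03 at 24 h (limma, adjusted p = 0.739). The 24 h call was also lost with the replicate block (limma, adjusted p = 0.0516) and with quantile normalization repeated (limma, adjusted p = 0.0904). Counting every setting, it was lost in 15 of 21.

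Of 10 tested genes for factors released from mitochondria and for caspase activation 4 fell and 0 rose at 24 h, and 3 fell and 3 rose at 72 h. At 24 h falls also outnumbered rises over all 10699 genes read by 1 probe set each (2307 and 1010). HTRA2, a released protease, fell by 1.32 ± 0.11 and 0.41 ± 0.11 (limma, adjusted p = 9.00e-06 and 0.0177). Its other probe set, 211152_s_at, fell by 1.34 at 24 h and was at -0.39 at 72 h, which did not pass (limma, adjusted p = 0.000379 and 0.172). CASP9, the initiator caspase of this route, fell by 0.96 ± 0.15 and 0.66 ± 0.15 and DIABLO, which blocks inhibitors of apoptosis, by 0.35 ± 0.08 and 0.38 ± 0.08 (limma, adjusted p of at most 0.00776). ENDOG, a mitochondrial nuclease gene, fell by 0.48 ± 0.09 at 24 h and rose by 0.37 ± 0.09 at 72 h (limma, adjusted p = 0.00259 and 0.0137). APAF1, the scaffold that assembles with cytochrome c, rose by 0.62 ± 0.13 and BIRC5, a mitotic inhibitor of apoptosis, by 0.72 ± 0.13 at 72 h (limma, adjusted p = 0.00385 and 0.00179). With its probe sets averaged APAF1 was at 0.20 and did not pass (limma, adjusted p = 0.0664). By another probe set, 202094_at, BIRC5 was higher at 24 h already, by 0.94 (limma, adjusted p = 0.0331). Its brightest probe set was at -0.09 there, and 210334_x_at and 1555826_at at -0.28 and 0.18, none of which passed. At 72 h the HTRA2 call was lost without control replicate 2 or Ota replicate 1 or 3, and the ENDOG call without control replicate 1 or 3 or Ota replicate 1. With quantile normalization repeated the ENDOG call at 72 h was lost too, at 0.27 (limma, adjusted p = 0.0561).

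Of 9 tested genes on the death receptor route to BID 2 fell and 0 rose at 24 h (2 rose when array medians were made equal and 1 with quantile normalization repeated), and 1 rose at 72 h. CFLAR, an inhibitor of caspase-8, fell by 1.21 ± 0.21 by its brightest probe set (limma, adjusted p = 0.00136), while another of its probe sets, 235427_at, rose by 2.75, so the gene has no single direction here. TRADD, a receptor adaptor gene, fell by 0.38 ± 0.11 at 24 h (limma, adjusted p = 0.0231), not without control 24 h replicate 3 or Ota 24 h replicate 2. CASP10, a relative of caspase-8, rose by 0.56 ± 0.17 at 72 h (limma, adjusted p = 0.0321), not without control 72 h replicate 2 or 3 or Ota 72 h replicate 1 or 3.

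Transcription factors known to act on family genes included 14 tested genes, of which 1 rose at 24 h and 4 rose and 2 fell at 72 h. STAT3, which can drive MCL1 and BCL2L1, rose by 0.32 ± 0.10 at 24 h and 0.47 ± 0.10 at 72 h (limma, adjusted p = 0.031 and 0.00508). The 24 h call of STAT3 was lost without any 1 of the 6 arrays at 24 h except Ota 24 h replicate 1. Other STAT3 probe sets were at 0.20 (208992_s_at) and -0.19 (225289_at) at 24 h, which did not pass. At 72 h 208992_s_at passed at 0.50 (limma, adjusted p = 0.00703), and 225289_at, at 0.24, did not. Averaged over its probe sets STAT3 was at 0.13 at 24 h and 0.30 at 72 h, with both calls lost (limma, adjusted p = 0.425 and 0.0621). E2F1, a cell cycle factor, rose by 1.11 ± 0.16, EGR1 by 0.94 ± 0.23 and HIF1A, the hypoxia factor gene, by 0.35 ± 0.09 at 72 h, the last not without control 72 h replicate 3 or Ota 72 h replicate 3. ATF4, which drives PMAIP1 in the integrated stress response, fell by 0.65 ± 0.12 with Ota at 72 h (limma, adjusted p = 0.00221), and DDIT3 (CHOP) by 0.63 ± 0.22 (limma, adjusted p = 0.0495), a call lost without any 1 array except Ota 72 h replicate 3. Without Ota 72 h replicate 1 the DDIT3 value itself was -0.32 (limma, adjusted p = 0.111).

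Over time the same factors moved alongside PMAIP1. In control cells DDIT3 went from 7.31 ± 0.09 (SD, n = 3) at 24 h to 12.55 ± 0.18 at 72 h, and in Ota cells from 6.89 ± 0.10 to 11.92 ± 0.54. ATF4 went from 12.21 ± 0.11 to 13.70 ± 0.08 in control and from 11.97 ± 0.02 to 13.05 ± 0.24 in Ota cells. ATF3, a related stress factor, went from 3.87, below the filter, to 9.39 in control and 9.10 in Ota cells. With FOXO3, which acts on BCL2L11, these were the 4 of 14 factors that rose in control cells over time, while 3 fell. Over all 10699 genes read by 1 probe set each, 2434 rose and 2529 fell. Whether these factors bear on the rise of PMAIP1 was not tested.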

How the data were processed

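The authors made the deposited values with GCRMA, per the submitters' processing notes, which yields log2 levels per probe set after a background model from probe sequence, quantile normalization and summarisation. The GCRMA version is not given in the sources used here. The method compresses dim values toward a floor, and quantile normalization removes a change shared by most transcripts. Arrays have no read depth, so the number of arrays, 3 per group, limits the precision.

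Gene symbols are those of GEO's platform annotation, brought up to date by gene ID from RefSeq tables (GRCh38.p14). Of 54675 probe sets 41091 had 1 symbol, 1801 several, 11721 none, and 62 were controls, which were left out. The 22477 probe sets above 4 on at least 3 arrays entered 1 limma 3.58.1 fit of the 4 group means on the 12 arrays (R 4.3.3, lmFit and eBayes, 8 residual and 2.93 prior degrees of freedom), with Benjamini-Hochberg adjustment over all of them. The script was tested on simulated data. Pathway genes, 68 in 5 lists, were read from their brightest probe set. Named are all members, from each list up to 3 genes per Ota comparison with the smallest p among those called, list genes that account for a count of 5 or fewer, and the 4 genes most like the member with the smallest F-test p over the groups. Members and lists were chosen with earlier results of these data known. Replicate numbers come from the labels, which do not say what they share. The main fit did not use them, also for the comparisons where they were taken to pair arrays. Deviations from group means of same-numbered arrays correlated at 0.35 to 0.48 between control and Ota cells at 24 h and at 0.12 to 0.29 between control cells at 24 h and 72 h, so the numbers were taken to pair these, but at -0.04 to 0.18 at 72 h and -0.08 to 0.14 between Ota cells at the 2 times, where they were not. Alternatives were the scaling, the filter, the choice of probe set, the prior, the groups in the fit, a replicate block and leaving out each array, and those for list genes and markers were added after seeing the data. Plots used matplotlib 3.10.9 (Python 3.11.15).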

Additional observations from a re-analysis of the deposited data

Results flagged for a closer look

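The Ota response differed between 72 h and 24 h, by a test of the difference itself, for 2 of 23 member probe sets, 8 list genes and 1 of 3 tested fibroblast markers. Over the whole array 17% of tested probe sets passed, and 2278 of 10699 genes read by 1 probe set each. The list genes were 1 of 8 further family genes, 1 of 14 partners and turnover factors and 2 of 14 transcription factors. With them were 3 of 10 genes for release and caspase activation and 1 of 9 on the death receptor route. On the log2 scale the response at 72 h minus that at 24 h was 1.41 for BCL2L2 and 0.94 for BID by 211725_s_at (limma, adjusted p = 0.00358 and 0.00494). For BCL2L2 the difference follows a response at 24 h of -1.76, and for BID one at 72 h of 0.87. Of the 3 BID probe sets only this one passed the test.

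Among list genes the difference was 1.25 for EGR1, 1.14 for E2F1, 0.90 for HTRA2, 0.88 for CASP10 and 0.85 for ENDOG. It was 0.81 for BIRC5, 0.58 for BCL2L12 and 0.46 for MTCH2, with limma adjusted p of at most 0.0305 for these 8. For MTCH2 the other probe set, 222403_at, gave -0.13 (limma, adjusted p = 0.719), so the difference rests on the brighter one. Other probe sets of EGR1 (201694_s_at, 0.74) and BIRC5 (202094_at, 0.61, and 1555826_at, 0.57) did not pass (limma, adjusted p = 0.0558, 0.355 and 0.44). Those of E2F1 (2028_s_at, 1.04) and HTRA2 (211152_s_at, 0.96) and BIRC5 210334_x_at (1.06) passed (limma, adjusted p = 0.0307, 0.0374 and 0.015). For the marker LUM it was 1.40 (limma, adjusted p = 0.0198). ENDOG was the one gene of these 11 that passed in opposite directions at the 2 times. Its call at 72 h was lost in 4 of 21 other settings, among them quantile normalization repeated.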

How the results depend on the processing

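Of 2242 recomputed log2 fold changes of member probe sets 2140 kept their side of the threshold, 52 no longer passed, 50 newly passed and 0 of those called changed sign. Counts of all probe sets called moved by over 1.5 times with 1 probe set per gene, where fewer are tested (3317 for Ota at 24 h, 3421 at 72 h, 2278 for the difference of the responses, 4963 for control cells over time and 3447 for Ota cells over time), and with probe sets averaged by gene (3048, 3181, 2027, 4620 and 3145). Without a filter the difference of the responses gave 2440 calls. Without 1 array the counts ranged from 5427 to 6748, 4518 to 6818, 2360 to 3897, 7405 to 9216 and 3957 to 6660 in the same order, and the counts of members from 3 to 6, 4 to 7, 2 to 3, 5 to 10 and 3 to 6.

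The count of members called was 3 without a filter for control cells over time and 3 for Ota cells over time (7483 and 4498 of all 54613 probe sets). With a filter at 6 the count of members called was 7 for Ota at 24 h (6014 of all 17757). With 1 probe set per gene it was 2 for Ota at 24 h, 2 at 72 h, 5 for control and 3 for Ota cells over time, and with probe sets averaged by gene 2 at 24 h, 1 for the difference, 4 for control and 2 for Ota cells over time. With the replicate number as a replicate block it was 7 at 24 h, 7 at 72 h and 4 for the difference. The same fit called 7767, 7199 and 4665 of all 22477 tested probe sets. Same-numbered arrays correlated above 0.1 in every pair for the 24 h and control time comparisons, and in 1 of 3 pairs each for the 72 h and Ota time comparisons. In those last 2 the arrays share only a number by this rule, and Ota 72 h replicate 1 correlated better with control replicate 2 (0.16) than 1 (0.0999). The block also passed BCL2 203685_at, BAX 211833_s_at and MCL1 200798_x_at at 72 h (limma, adjusted p = 0.0148, 0.0476 and 0.0324), and for the difference BAX 211833_s_at and BID 204493_at (limma, adjusted p = 0.042 and 0.0377). It ended no call of a member.

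With probe sets averaged by gene CFLAR at 24 h was at 0.10 and MTCH2 at 0.35 (limma, adjusted p = 0.583 and 0.0127), against -1.21 and -0.09 by the brightest probe set. Scaling moved the direction of calls over the whole array. At 72 h 3695 probe sets were higher and 2649 lower, but 3110 and 3407 once array medians were made equal. For Ota cells over time the split went from 3971 and 2235 to 2872 and 3676, and for the difference from 2516 and 1298 to 1872 and 1996, with the median of all probe sets moving from 0.05 to -0.07 in both. The members called for Ota kept their direction and call under both scalings.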
